A study of Mus musculus with 3 samples.

Results

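The small leucine-rich proteoglycans (SLRPs) were examined as a gene family in sorted cells of the mouse leptomeninges, the thin inner membranes of the brain. The 10 genes Dcn, Bgn, Aspn, Lum, Fmod, Prelp, Omd, Kera, Ogn and Chad were taken by symbol from a table of 46983 gene rows, and each symbol matched 1 row. RNA came from 3 libraries of 1 group, the pia enriched fraction of vehicle-treated mice, numbered 1 to 3 as in their labels. Membranes were dissected, dissociated and sorted by flow cytometry before low-input amplification of the RNA. The labels give no strain, genotype, age, sex, sorting marker or purpose of the vehicle, and do not say whether animals were pooled. With 1 group there was no treatment contrast, so the comparisons are between genes and between replicate libraries. Nothing in the labels says that the libraries came from separate animals, so the spread between them may be technical.

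SLRPs are secreted matrix proteins whose core is a curved stack of leucine-rich repeats. Most of them bind the surface of collagen fibrils and influence how thick and how regularly spaced those fibrils become, and several also bind growth factors such as TGF-beta. Many carry sulfated sugar chains: chondroitin or dermatan sulfate on the class I proteins decorin and biglycan, and keratan sulfate on class II proteins such as lumican and fibromodulin. In the meninges they are known as products of the fibroblasts that lay down the collagen of these membranes.

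Gene counts ranged from 21002860 to 28704952 per library. Levels are counts scaled to the size of the library's gene total, in the unit CPM, and levels of genes were ranked against each other as CPM per kilobase of exon. Shares of counts, given for sums of genes, are not corrected for length. The fibroblast markers fitted the label, with all 6 of 6 past the count filter at a summed level of 18222 to 23354 CPM, led per length by Col1a2 and Col1a1. Of 9 leptomeningeal fibroblast markers 8 passed, summed at 1655 to 1739 CPM and led by Slc47a1 and Ptgds at 309 and 284 CPM per kilobase. Most of that sum was theirs, with means of 1045 and 468 CPM against 65.3 CPM for the next, Aldh1a2. Slc47a1 was lowest and Ptgds highest in library 1, and the reverse held in library 2. Lama1 did not pass. Markers of other cell types were not at 0: the summed levels lay between 2380 and 4585 CPM for 6 mural genes, between 2613 and 4377 CPM for 5 Schwann cell genes and between 54.6 and 62.9 CPM for 5 endothelial genes. In bulk RNA, a smaller number of cells of a type and less RNA per cell cannot be told apart. Library 1 stood apart from the others, as described beside the results that it touches. Mitochondrial genes took 0.918% of its gene counts, against 3.60% and 3.46% in libraries 2 and 3.

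By count, the 10 genes made up 1.75%, 1.93% and 1.41% of all gene counts in libraries 1, 2 and 3, a mean of 1.70% ± 0.27 (SD, n = 3). The chains of type I collagen, Col1a1 and Col1a2, took 1.67% ± 0.23 between them, so the summed shares lay within 1 SD of each other. Of the 10 genes 9 passed the filter on low counts, a step that 30.7% of all gene rows passed. The same 9 had a mean of at least 1 CPM, against 30.2% of gene rows, and 8 had at least 100 CPM, against 3.90% of gene rows. Keratocan was the member outside the filter and below 1 CPM, and Omd, at a mean of 42.2 CPM, was also below 100 CPM. Class I genes (Dcn, Bgn, Aspn) held 0.909% ± 0.096 of gene counts and class II genes (Fmod, Lum, Prelp, Kera, Omd) 0.541% ± 0.10. The only class III gene measured among the members, Ogn, held 0.0999% ± 0.080, and the class IV gene Chad 0.148% ± 0.14.

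**Figure D1:**
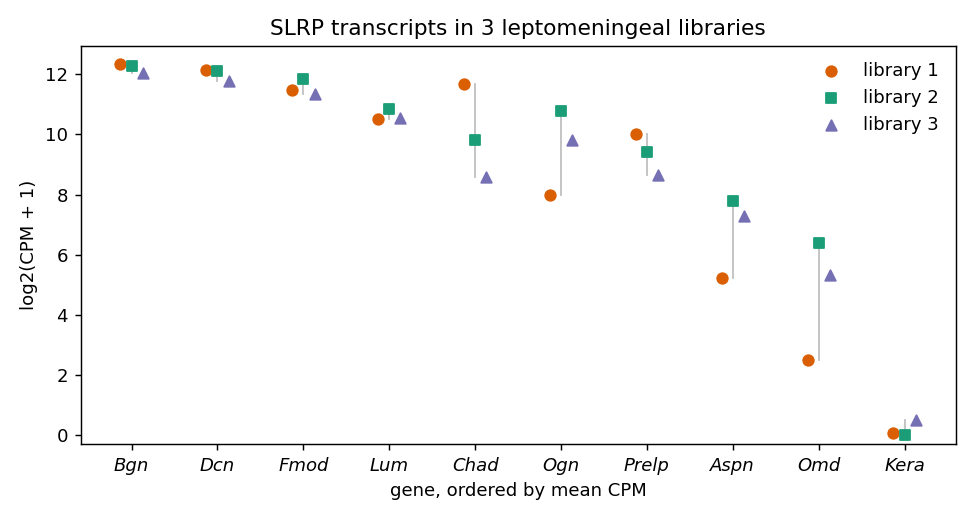
Level of each of the 10 SLRP genes as log2(CPM + 1) in library 1 (circles), library 2 (squares) and library 3 (triangles), with a grey line over the range. Bgn, Dcn, Fmod and Lum cluster tightly, whereas Chad is highest in library 1 and Ogn, Aspn and Omd are lowest in it, and Kera lies near 0.

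The class I genes biglycan and decorin were among the most abundant transcripts of the cells and changed little between libraries. Biglycan (Bgn, ENSMUSG00000031375, chromosome X, 73483602 to 73495933), a collagen-binding proteoglycan that also acts as a danger signal when released from matrix, was at 5129, 4990 and 4245 CPM in libraries 1, 2 and 3. Decorin (Dcn, ENSMUSG00000019929, chromosome 10, 97479609 to 97518143), which binds type I collagen and limits the lateral growth of fibrils, was at 4527, 4454 and 3523 CPM. Both were lowest in library 3, and per kilobase their ranges overlapped. They ranked 43 and 49 among all genes by mean CPM per kilobase. Their coefficients of variation (SD divided by the mean) were 9.93% for Bgn and 13.4% for Dcn, at percentiles 15 and 23.4 among the 1832 genes of at least 100 CPM, whose median was 22.8%.

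Asporin (Aspn, ENSMUSG00000021388, chromosome 13, 49544443 to 49567565), the class I member with an aspartate-rich end that binds collagen and TGF-beta, was far less even. Its levels in libraries 1, 2 and 3 were 36.3, 221 and 157 CPM, so library 1 was the low one. Its highest library thus exceeded its lowest 6.10-fold, and its coefficient of variation of 68.0% lay at percentile 98.9 among genes of at least 100 CPM.

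Fibromodulin and lumican led class II. Fibromodulin (Fmod, ENSMUSG00000041559, chromosome 1, 134037254 to 134048277), a keratan sulfate proteoglycan that guides collagen cross-linking in tendon, was at 2866, 3710 and 2598 CPM in libraries 1, 2 and 3. Lumican (Lum, ENSMUSG00000036446, chromosome 10, 97565128 to 97572703), needed for the ordered fibrils of the transparent cornea, was at 1453, 1849 and 1485 CPM. Both were highest in library 2. Per kilobase, the lowest Fmod library (786) lay above the highest Lum library (755). Their coefficients of variation were 19.0% and 13.8%. Prelp (ENSMUSG00000041577, chromosome 1, 133910304 to 133921414), a protein with a basic end that links basement membranes to collagen, had a wider range, at 1024, 675 and 400 CPM, and was highest in library 1. An antisense gene, Gm15851, covers 9.68% of the exon bases of Prelp, and the strand setting of the counting was not stated.

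Osteomodulin and keratocan were the lowest of the class. Osteomodulin (Omd, ENSMUSG00000048368, chromosome 13, 49582462 to 49592822), a keratan sulfate proteoglycan of mineralized matrix, had 92, 2471 and 1009 counts in libraries 1, 2 and 3, which is 4.65, 83.0 and 38.9 CPM. Library 1 was again the low one, 17.9-fold below library 2. Keratocan (Kera, ENSMUSG00000019932, chromosome 10, 97606879 to 97613692), the corneal member of the family, had 1 count in library 1, 0 in library 2 and 11 in library 3. The floor of 3 counts in library 2 was 0.101 CPM, which covers counting error only, and the 11 counts in library 3 amount to 0.424 CPM. No fold between libraries is given for it.

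Osteoglycin and chondroadherin, the members of classes III and IV, were abundant on average and differed widely between libraries. Osteoglycin (Ogn, also called mimecan, ENSMUSG00000021390, chromosome 13, 49608046 to 49624501), which regulates fibril diameter in several connective tissues, had levels of 250.03, 1772 and 904 CPM in libraries 1, 2 and 3. Chondroadherin (Chad, ENSMUSG00000039084, chromosome 11, 94565047 to 94569127), a cartilage protein that binds collagen and the integrin alpha2beta1 and whose role lies in attaching cells to matrix, was at 3296, 895 and 384 CPM. The libraries were thus in opposite order for the pair: Ogn was lowest and Chad highest in library 1. Chad had 65240 counts in library 1 and 9967 in library 3, and per kilobase it ranked 1 among the members in library 1 and 6 in libraries 2 and 3. Their coefficients of variation of 78.3% and 102% lay at percentiles 99.7 and 99.9 among genes of at least 100 CPM.

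Per length, the leading members could not be ranked. On CPM per kilobase of all annotated exons the means (± SD, n = 3) were 925 ± 176 for Fmod, 908 ± 925 for Chad, 785 ± 77.97 for Bgn, 714 ± 95.9 for Dcn and 652 ± 89.8 for Lum. Below them came Ogn at 380.1 ± 298, Prelp at 193 ± 86.5, Aspn at 58.7 ± 39.9, Omd at 18.8 ± 17.5 and Kera at 0.0694 ± 0.10. Of the 9 pairs of neighbours in this order, 5 had the same order in every library, namely Bgn over Dcn, Lum over Ogn, Prelp over Aspn, Aspn over Omd and Omd over Kera. For 2 pairs, Prelp over Aspn and Omd over Kera, the means were also separated by more than 1 SD on each side. The position of Chad rested on library 1, where it led at 1962 CPM per kilobase against 533 and 229 in libraries 2 and 3.

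The lengths assigned to Dcn and Bgn decided their place at the top. Exons of all their annotated transcripts cover 5838 and 6099 bases, whereas the longest transcripts matched to a RefSeq mRNA have 1758 and 2419 bases. With those lengths, an alternative chosen after seeing the data, Dcn led at 2371 ± 318 CPM per kilobase, Bgn followed at 1979 ± 197 and Fmod at 980.0 ± 186. With the longest transcript of each gene, Bgn led at 1796 ± 178 and Dcn was at 888 ± 119. The log2 ratio of Dcn to Bgn was -0.12, -0.10 and -0.21 in libraries 1, 2 and 3 with all exons, a mean of -0.14 ± 0.057, and the mean turned to 0.26 with the RefSeq-matched lengths. A change of length shifts the ratio equally in all libraries. With each library's trend with GC content and transcript length removed, the ratio was 0.88, -0.74 and -0.56, so its spread grew to an SD of 0.889 and its sign differed between libraries.

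**Figure D2:**
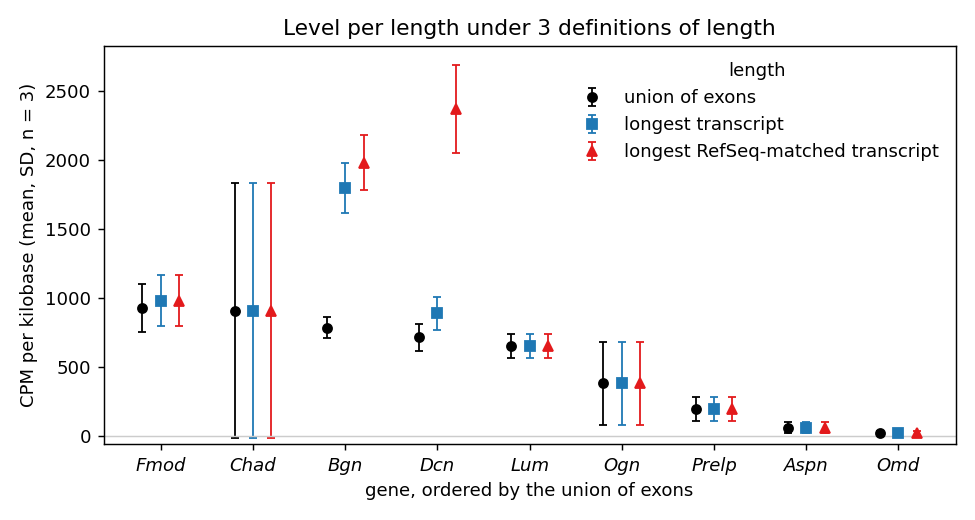
CPM per kilobase (mean and SD of 3 libraries) for the 9 SLRP genes past the count filter under 3 definitions of gene length: all exons, longest transcript, and longest transcript matched to a RefSeq mRNA. Dcn moves from 714 to 2371 and Bgn from 785 to 1979, whereas Lum, Ogn, Prelp, Omd and Chad do not move because all definitions give them the same length.

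Other ratios within the family varied more. The log2 ratio of Dcn to Lum per kilobase was 0.39, 0.01 and -0.01 in libraries 1, 2 and 3, so neither gene was higher in every library. That of Fmod to Prelp was 1.61, 2.59 and 2.83, with Fmod higher in all 3, and that of Ogn to Omd was 5.56, 4.23 and 4.35, with Ogn higher in all 3. Lum exceeded Kera by 11.67 on the log2 scale in library 3, the only library where Kera had more than 3 counts. For Chad against Ogn, a pair chosen after the values were seen, the ratio was 4.33 in library 1 but -0.37 and -0.62 in libraries 2 and 3.

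Variation between libraries was tested over all 14409 genes past the filter with edgeR's goodness-of-fit test, which asks whether a gene's counts spread more than those of genes of like abundance. At a Benjamini-Hochberg adjusted p under 0.05 the test called 0.437% of genes (63) and 3 of the 9 members: Omd (adjusted p = 0.0004433), Chad (adjusted p = 0.00504) and Ogn (adjusted p = 0.04065). Aspn missed the threshold (edgeR adjusted p = 0.06163). The adjusted values of the other 5 members, Dcn, Bgn, Lum, Fmod and Prelp, were at least 0.899. The sizes behind the calls were large: relative to the mean of libraries 2 and 3, Chad was 5.15-fold higher in library 1, Omd 13.1-fold lower and Ogn 5.35-fold lower. The calls rested on few libraries. Without library 1 edgeR called 0 of the 9 members (3 had an unadjusted p under 0.05), without library 2 it called Chad alone and without library 3 Omd alone. With a dispersion estimated for each gene separately it called 0 members and 0 of all genes, although 4 members and 96 of all genes had an unadjusted p under 0.05.

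Since the chromosome 13 genes Aspn, Omd and Ogn were low together in library 1 and Chad was high there, the 250 bases upstream of the starts of these 4 genes are shown, 5′ to 3′ on the + strand, from RefSeq on GRCm38.p6. They span chr13:49544193-49544442, chr13:49582212-49582461, chr13:49607765-49608014 and chr11:94564797-94565046. Capitals mark TATAAA on either strand, the core letters of a TATA box, and the matches of both strands overlap in Ogn.
Aspn: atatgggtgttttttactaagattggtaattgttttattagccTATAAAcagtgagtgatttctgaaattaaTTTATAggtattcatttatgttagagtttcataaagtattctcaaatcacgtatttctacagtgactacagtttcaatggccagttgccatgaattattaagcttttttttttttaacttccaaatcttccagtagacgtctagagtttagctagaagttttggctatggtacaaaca
Omd: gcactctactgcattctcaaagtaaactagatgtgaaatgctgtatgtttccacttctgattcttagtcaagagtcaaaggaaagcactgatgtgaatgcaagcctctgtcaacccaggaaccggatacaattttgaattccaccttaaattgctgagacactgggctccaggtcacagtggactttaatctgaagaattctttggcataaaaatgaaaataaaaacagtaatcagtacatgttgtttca
Ogn: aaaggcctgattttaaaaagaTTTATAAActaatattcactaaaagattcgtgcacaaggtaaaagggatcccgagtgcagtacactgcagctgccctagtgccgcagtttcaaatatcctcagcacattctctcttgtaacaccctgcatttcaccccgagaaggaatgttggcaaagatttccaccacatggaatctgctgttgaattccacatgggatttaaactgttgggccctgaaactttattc
Chad: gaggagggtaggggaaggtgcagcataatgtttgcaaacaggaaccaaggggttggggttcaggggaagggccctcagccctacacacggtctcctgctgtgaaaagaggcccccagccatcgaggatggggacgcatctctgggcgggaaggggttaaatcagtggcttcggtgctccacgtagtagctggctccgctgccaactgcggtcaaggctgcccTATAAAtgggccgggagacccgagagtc
In Chad the match begins 28 bases before the start. The matches in Aspn begin 207 and 178 bases before it and those in Ogn 229 and 227 bases before it, and Omd had none in this window. Among 32851 promoters of the same length 12.4% held TATAAA on either strand. Promoter sequences were in the table for 8 of the 10 members, and 3 of the 8 held it. The letters CCAAT were found in 3 of the 8 and in 33.8% of all promoters, GGGCGG in 2 of the 8 and in 32.7%, and TGANTCA in 0 of the 8 and in 6.7%, each on either strand. Upstream GC content was 30.0% for Aspn, 38.4% for Omd and 42.0% for Ogn against 60.4% for Chad, with a median of 52.4% over all promoters. These 4 genes were chosen by their library 1 values. Of the other members with a promoter sequence, Bgn had 64.4%, Prelp 55.6%, Fmod 51.2% and Kera 42.4%. The relation of upstream GC content to the differences between libraries was not tested.

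GC content of the transcripts moved with the departure of library 1. Library 1 was the lowest of the 3 in 4 of the 9 members (Aspn, Lum, Omd, Ogn), where 40.4% of all genes had it lowest, and the highest in 4 (Dcn, Bgn, Prelp, Chad), where 39.6% of all genes had it highest. Of those low members 3 were among the poorest in GC: the longest transcripts of Aspn, Omd and Ogn had 34.3%, 36.1% and 36.3% GC, while that of Chad had 56.7%. Across all genes the log2 difference of library 1 from the mean of libraries 2 and 3 also fell with lower GC, at a Spearman coefficient of 0.608 across 14375 genes, which are not independent replicates. Across the 9 members the coefficient was 0.833, as a description of points that share the same libraries.

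Genes of like base composition gave a nearer comparison. Omd differed in library 1 by -3.36 on the log2 scale, against a median of -1.46 for the 111 genes within 1 percentage point of its GC content, and lay at percentile 0.9 of them. Ogn differed by -2.34 against a median of -1.46 over 128 genes, at percentile 10.9, and Aspn by -2.33 against -1.33 over 28 genes, at percentile 14.3. Chad differed by 2.49 against 0.41 over 1220 genes, at percentile 99.9. Decorin went the other way from the GC class of its longest transcript, which has 4692 bases and 37.4% GC. It differed by 0.19 where the median of 234 genes was -1.32, at percentile 94.9. The GC content of its RefSeq-matched transcript, of 1758 bases, was not used. Bgn (0.16 against 0.17) and Lum (-0.19 against -0.77) lay inside the central 80% of their classes, and so did Fmod (-0.12 against 0.33), whereas Prelp (0.98 against 0.34) lay above it.

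**Figure D3:**
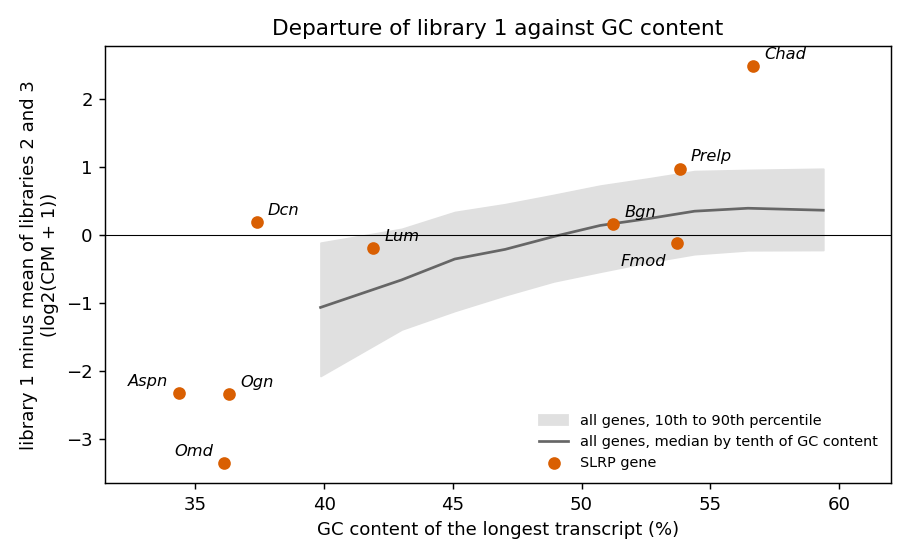
Log2 difference of library 1 from the mean of libraries 2 and 3 against GC content of the longest transcript, for the 9 SLRP genes past the filter (points), with the median (line) and the 10th to 90th percentile (band) of all genes in 10 equal groups by GC content. Set against the band of their own GC group, Omd (-3.36), Ogn (-2.34) and Aspn (-2.33) lie below it, Chad (2.49), Prelp (0.98) and Dcn (0.19) above it and the other 3 members inside it. Aspn, Omd, Ogn and Dcn are poorer in GC than the median of the lowest group, 39.9%.

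When each library's trend with GC content and transcript length was removed, Omd (edgeR adjusted p = 0.001137) and Chad (edgeR adjusted p = 0.0008181) were still called, and Ogn (edgeR adjusted p = 0.4286) was not. The differences of library 1 became -2.10 for Omd, 1.97 for Chad, -1.09 for Ogn and -0.86 for Aspn. That of Dcn grew to 1.42, and those of Bgn and Lum changed sign, to -0.11 and 0.41. Among the members, the annotated lengths of Dcn differ most with the transcript chosen. The difference of Fmod changed sign when library 2 was left out, to 0.14.

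Markers of other cells also departed in library 1. The summed level of 6 macrophage markers was 15.1 CPM in library 1 against 234 and 664 CPM in libraries 2 and 3, all 6 lowest in library 1, led per length by Lyz2 and C1qb. For 5 choroid plexus epithelium markers, led by Ttr and Enpp2, it was 97.6 against 3193 and 4877 CPM, and for 4 erythroid markers, led by Hbb-bs and Hba-a1, 800.1 against 197 and 328 CPM. None of these lists had a gene at 0 in all libraries. The edgeR test called 5 of the 6 macrophage markers variable (C1qa, C1qb, C1qc, Csf1r and Lyz2, adjusted p of at most 3.83e-07) and 3 of the 5 choroid plexus markers (Ttr, Enpp2 and Kcnj13, adjusted p of at most 0.0003113). The share of mitochondrial genes was lowest in library 1 as well. The part of these markers and of that share in the differences of Chad, Omd, Ogn and Aspn was not tested. Among skeletal markers past the filter, library 1 was highest in 1 of 6 cartilage markers, in 1 of 6 bone markers and in 0 of 3 tendon markers. The cartilage marker was Comp, at 332, 249 and 239.99 CPM in libraries 1, 2 and 3, and the bone marker was Alpl, at 4871, 3350 and 2569 CPM. The summed levels of both lists had the order of libraries of Chad, but each sum was mostly that 1 gene. In library 1 Alpl made up 4871 of 4968 CPM of the bone list and Comp 332 of 415 CPM of the cartilage list.

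Cartilage, bone, tendon and cornea were checked because several members are named for those tissues. The 7 cartilage markers summed to 415, 364 and 317 CPM in libraries 1, 2 and 3, led per length by Comp (mean 274 CPM) and Acan (49.9 CPM), whereas the cartilage collagen gene Col2a1 had a mean of 1.35 CPM and Matn1 of 0.312 CPM. Of 7 bone markers, Alpl (3597 CPM) and Sp7 (55.4 CPM) led per length, and the osteoblast products Bglap and Ibsp were at 2.97 and 3.24 CPM. Alpl encodes an alkaline phosphatase that many other cells make too. In libraries 1, 2 and 3 Bglap was at 1.31, 7.09 and 0.501 CPM and Ibsp at 2.07, 6.79 and 0.848 CPM. Both were highest in library 2, like Omd, but lowest in library 3, whereas Omd was lowest in library 1. The tendon markers Tnmd and Mkx were at 187 and 27.1 CPM and Scx at 0.164 CPM, and the corneal markers Aldh3a1 and Krt12 at 74.2 and 6.10 CPM. The part of cells of these tissues in the SLRP levels was not tested.

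Apart from library 1, the family moved together between the remaining libraries. All 9 members past the filter were higher in library 2 than in library 3, where 50.5% of all genes were. The log2 difference was 0.23 for Bgn, 0.32 for Lum, 0.34 for Dcn, 0.49 for Aspn, 0.51 for Fmod, 0.75 for Prelp, 0.97 for Ogn, 1.07 for Omd and 1.217 for Chad. Its median was 0.51, against 0.00 over all genes. The count was 9 of 9 also with median-of-ratios size factors, with plain totals and with the GC content and length trends removed. This comparison was made after the values had been seen and has no replicate within a library, so it has no test.

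Collagens showed the same order of these libraries, with 11 of 12 fibril-forming and associated collagen genes higher in library 2. So were 7 of 8 leptomeningeal fibroblast markers, 7 of 7 other SLRP genes and 11 of 12 protease genes past the filter. The leptomeningeal exception was Ptgds, at 239 CPM in library 2 and 518 CPM in library 3. That list summed to 1698 and 1739 CPM in these libraries. The fibroblast markers gave 5 of 6, but 3 of them are collagens already counted; of the rest Pdgfra and Pdgfrb were higher in library 2 and Dpt lower, at 13.8 against 22.1 CPM. Cartilage markers were higher in library 2 in 6 of 6 cases, with Col2a1 also on the collagen list, and bone markers in 5 of 6. Markers of several other cells had the reverse order: 0 of 6 mural, 0 of 5 Schwann cell, 0 of 6 macrophage and 0 of 4 astrocyte markers were higher in library 2. The count was 0 of 4 for erythroid markers, 1 of 5 for endothelial and 1 of 5 for choroid plexus markers. Other lists were divided, with 4 of 8 meningeal layer genes and 7 of 18 ligand and receptor genes higher in library 2. Among sugar-chain genes past the filter, 5 of 7 for the linker between chain and protein were higher in library 2. So were 9 of 14 for chondroitin and dermatan sulfate and 3 of 6 for keratan sulfate. Of neuron markers 3 of 4 were higher there, and of tendon and of corneal markers 2 of 3 each. Of the mural list, Acta2 and Tagln were at 1154 and 384 CPM in library 2 and at 2342 and 891 CPM in library 3. The part of any of these cells in the order of the SLRP genes was not tested.

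**Figure D4:**
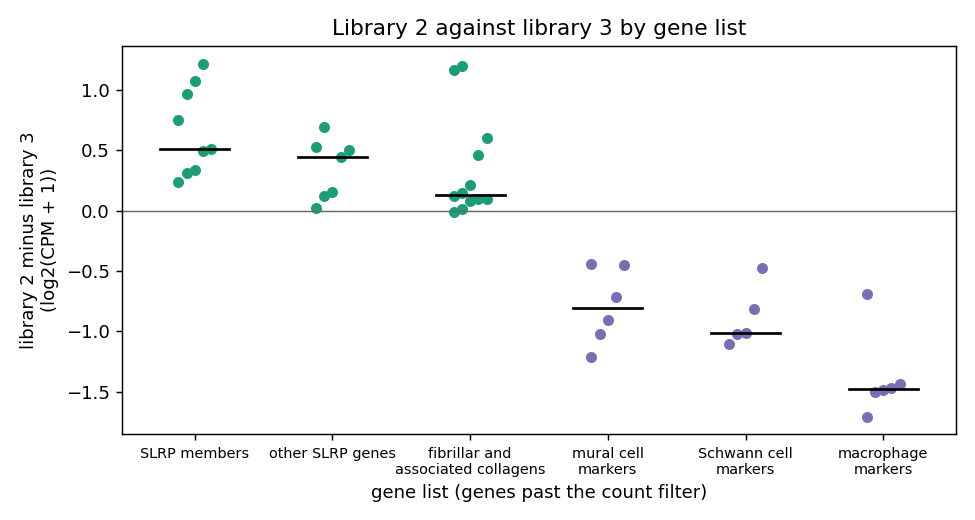
Log2 difference of library 2 from library 3 for each gene past the count filter in 6 lists (points), with the list median (bar) and a line at 0. All 9 SLRP members and 11 of 12 collagens lie above 0, and all mural, Schwann cell and macrophage markers below it.

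Most SLRP genes lie in clusters on mouse chromosomes, and levels within a cluster differed widely. The chromosome 10 cluster holds Dcn, Lum, Kera and Epyc in 202.8 kilobases of GENCODE M21 on GRCm38. Per kilobase its genes were at 714, 652, 0.0694 and 17.1 CPM in that order. Dcn and Lum were the high neighbours of Kera, whose library counts were 1, 0 and 11, and Epyc beyond it was again detected at 45.01, 49.9 and 36.4 CPM in libraries 1, 2 and 3. Of the exon bases of Epyc 40.65% are also covered by the antisense gene Gm10754, so its counts are uncertain. The nearest coding genes outside the family were Btg1, 856800 bases away on the side of Dcn, at 30.6 CPM and Ccer1 at 0.527 CPM on the side of Epyc.

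On chromosome 13, Ecm2, Aspn, Omd and Ogn lie in that order within 119.7 kilobases, all inside the span of the oppositely transcribed gene Cenpp. Ecm2, a relative of the class I genes, was at 106, 180.4 and 125 CPM in libraries 1, 2 and 3, so all 4 genes of the cluster were lowest in library 1 and highest in library 2. All 4 are in the tenth of genes with the lowest GC content, of which 87.1% were lowest in library 1. The neighbours Ippk and Nol8 were also lowest in library 1, at 7.98 and 5.36 CPM, but highest in library 3, at 13.2 and 11.7 CPM. Cenpp was at 0.253, 1.44 and 1.62 CPM, and of the exon bases of the members only 0.30% in Aspn are shared with it. On chromosome 1, Optc, Prelp and Fmod lie within 151.1 kilobases. Optc, the opticin gene of the eye, was at 13.7, 7.22 and 4.09 CPM in libraries 1, 2 and 3, the same order of libraries as its neighbour Prelp, while Fmod followed another. Atp2b4 and Btg2 flank that cluster, at means of 30.8 and 271 CPM.

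**Figure D5:**
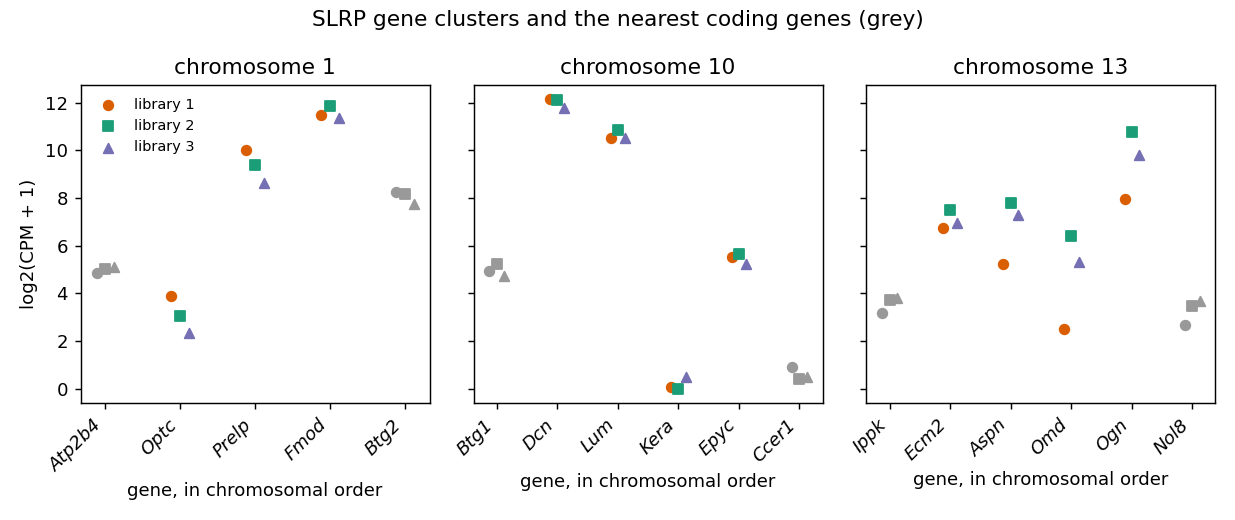
Log2(CPM + 1) in each library for the genes of the 3 SLRP clusters in chromosomal order, with the nearest coding gene on each side in grey. All 4 cluster genes on chromosome 13 are lowest in library 1, and on chromosome 10 Kera lies near 0 between Lum and Epyc.

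Bgn and Chad lie outside these clusters. Haus7 and Atp2b3 beside Bgn were at 23.6 and 1.61 CPM. Chad lies within the span of Acsf2 on the opposite strand and shares no exon base with it. Acsf2 was at 41.7, 23.8 and 22.4 CPM in libraries 1, 2 and 3, highest in library 1 like Chad but with a far smaller range. The flanking genes Rsad1 and Lrrc59 were at 9.03 and 34.5 CPM.

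The other 8 genes of the extended family had means of 0.131 to 24.2 CPM per kilobase, below those of the members other than Omd and Kera. Of them 7 passed the filter, and 1, Ecm2, reached 100 CPM. Podn, the podocan gene of class V, had the smallest coefficient of variation of the 8 (5.33%), at 91.8, 90.02 and 82.9 CPM, and its relative Podnl1 was at 0.464 CPM. Tsku (tsukushi, a secreted inhibitor of BMP and Wnt signals) had a mean of 42.0 CPM, Chadl of 2.09 CPM and Nyx (nyctalopin of the retina) of 0.748 CPM. Of the exon bases of Chadl 19.46% overlap another gene. The edgeR test called 0 of the 7, with adjusted p of at least 0.960, and 0 had an unadjusted p under 0.05.

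Most genes for the sugar chains were detected, each at a lower level per length than every member other than Omd and Kera. All 7 genes of the linker region, the short sugar that joins a chain to its protein, passed the filter, led per length by B3gat3 (19.3 CPM per kilobase), the xylose phosphatase gene Pxylp1 (16.2) and B4galt7 (15.9). Of 16 genes for chondroitin and dermatan sulfate chains 14 passed, led by the sulfotransferase Chst12 (44.7 CPM per kilobase), the dermatan sulfate epimerase Dse (37.4) and the polymerizing factor Chpf (15.9). Keratan sulfate genes were fewer: 6 of 8 passed, led by the galactosyltransferases B4galt1 (12.0 CPM per kilobase) and B4galt4 (9.57), which also act on other glycans. The sulfotransferase Chst2 followed at 1.01 CPM per kilobase, Chst1 and B3gnt7, which act on keratan sulfate, had means of 2.44 and 0.996 CPM, and Chst4 had 0 counts in all libraries. The edgeR test called 0 genes of these 3 lists, and 1 gene, of the chondroitin and dermatan sulfate list, had an unadjusted p under 0.05.

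Partners of SLRPs were examined last. All 12 fibril-forming and fibril-associated collagen genes passed the filter and 9 were above 100 CPM, with 0 called variable by edgeR and 1 at an unadjusted p under 0.05. They were led per length by Col1a2 (925 CPM per kilobase), Col1a1 (777) and Col6a1 (625). Per length of all annotated exons Fmod, at 925 CPM per kilobase, was thus at the level of the type I collagen chains. Without division by length, Fmod had a mean of 3058 CPM against 11497 CPM for Col1a2 and 5099 CPM for Col1a1. The collagens were not compared under the other definitions of length. Of 13 genes for proteases and their helpers reported to act on SLRPs 12 passed. Pcolce, a helper of the procollagen C-proteinase and not a protease itself, led at 489 CPM per kilobase, followed by Mmp2 (131) and Htra1 (48.7). Mmp9 was the 1 gene of these lists called variable (edgeR adjusted p = 0.03542), at 88.6, 39.8 and 10.9 CPM in libraries 1, 2 and 3. Its order of libraries was that of Chad and Prelp. The share of all genes with a given order was not computed, here or for the other genes compared by order.

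All 18 ligand and receptor genes passed the filter, with 4 above 100 CPM. They were led per length by Tgfb3 (132 CPM per kilobase), a TGF-beta that decorin, biglycan and fibromodulin can bind, the endocytic receptor Lrp1 (124), which takes up decorin, and the integrin chain Itgb1 (70.9). Egfr, a receptor bound by decorin, was at 261, 358 and 390 CPM in libraries 1, 2 and 3. Itga2, the partner of Itgb1 in the integrin that Chad binds, was low, at 4.40, 6.12 and 4.40 CPM, and did not share the order of libraries of Chad. The receptors Tlr2 and Tlr4, through which free biglycan signals, were at means of 5.65 and 18.7 CPM. Of these 18 genes edgeR called 0 variable, with 2 at an unadjusted p under 0.05, and over the 7 lists beyond the members 1 gene was called.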

How the data were processed

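RNA of 3 libraries was measured by sequencing after low-input cDNA amplification, per the labels' protocols. The deposited values are raw counts per gene: whole numbers with no normalization by the authors. The submitters' processing notes name HTSeq 0.5.3, DESeq2 1.22.1 and the mm10 build; the aligner and strand setting are not given in the sources used here. Counter rows for reads of no gene were left out (39.1% to 45.6% of each library's total). Genes were filtered with filterByExpr (minimum count 10), which left 14409, and sizes were then scaled by TMM in edgeR 4.0.16 (R 4.3.3). Lengths, GC content and coordinates came from GENCODE M21 on GRCm38, the assembly of mm10, in which 46488 identifiers (98.9%) matched. Log2 differences between libraries are of log2(CPM + 1), which understates changes of low genes. Except where the GC content and length trends were removed, log2 ratios between genes are of CPM per kilobase with nothing added. Variation was tested by goodness of fit in edgeR, using the trended dispersion and Benjamini-Hochberg adjustment. In counts simulated for that test on 14409 genes, it recovered 145 of 200 genes changed 8-fold in 1 library, with 8 false calls, and 38 of 200 changed 4-fold, with 4. The members and lists were chosen with earlier results of these data known. The rule for naming took all family genes, the 3 highest genes per length of each pathway list, the 2 highest of each marker list, genes at 0, flanking genes and genes called variable; others named were chosen after their values were seen. The leading genes of 1 marker list are not reported here. Genes of the meningeal layers were led by Fxyd5 and Crabp2 (843 and 123 CPM per kilobase), endothelial markers by Cdh5 and Pecam1 (6.88 and 2.32), astrocyte markers by Slc1a3 and Gfap (3.69 and 1.86) and neuron markers by Snap25 and Tubb3 (8.27 and 7.14). Reads amplified without molecular identifiers are not independent molecules.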

Additional observations from a re-analysis of the deposited data

Results flagged for a closer look

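Reads that the table assigned to no gene lay outside the values used above and made up a mean of 41.4% of all reads in it, above what a count of 0 allows. In libraries 1, 2 and 3, reads not aligned were 20.1%, 10.7% and 13.2% of the total, and reads aligned to more than 1 place 16.9%, 15.3% and 17.4%. The table gives no position for them, so their relation to the SLRP genes was not tested.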

How the results depend on the processing

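The count of variable genes (63) became 134 when low genes were kept (25083 tested), 0 with a dispersion per gene and 101 with the GC content and length trends removed, and ranged from 12 to 28 when a library was left out. The count of SLRP members called (3) was 4 with plain totals, which added Aspn, 0 with a dispersion per gene and 2 with the trends removed, and ranged from 0 to 1 with a library left out. Plain totals moved the median difference of library 1 over all genes from 0.00 to -0.11. The summed share of the members (1.70%) was 1.42% per kilobase. The log2 ratio of Dcn to Bgn (-0.14) was -1.02 with the longest transcript and reversed to 0.26 with the RefSeq-matched one; that of Dcn to Lum (0.13) was 0.45 and 1.86. The ratio of Chad to Ogn (1.11) reversed to -0.50 without library 1 and lay between -0.50 and 1.98 when a library was left out. Neighbours in the same order in every library (5 pairs) numbered 6 to 8 with a library left out, where fewer libraries must be in order. The median difference of library 1 over the members (-0.12) was 0.14 without library 2 and -0.35 without library 3. With the trends removed, the difference of library 1 reversed in Bgn (-0.11) and Lum (0.41), and without library 2 in Fmod, where leaving out a library gave -0.37 to 0.14. The cause of these changes was not tested beyond the lengths and sample numbers named. The log2 ratio of Lum to Kera had no finite value in library 2, where Kera had 0 counts. With the trends removed it was not computed, because Kera did not pass the filter. No paired analysis was possible because all libraries belong to 1 group. Depth limited Kera: 3 counts were 0.152, 0.101 and 0.116 CPM in libraries 1, 2 and 3.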
